A study of Mus musculus with 54 samples.

Results

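RNA of hematopoietic stem cells (HSC) was sequenced 1 h and 24 h after radiation in mice treated beforehand with dmPGE2, and the 8 libraries of each time were compared. These 16 libraries, of 54 in the study, are 8 columns named for dmPGE2 and 24 h and 8 named for dmPGE2 and radiation without 24 h. The radiation of the former and the time of the latter were inferred from the labels. The mice had a C57BL/6 background and an Fgd5 reporter that makes their HSC fluoresce with ZsGreen, and so did the controls. Each mouse was injected under the skin with dmPGE2 in ethanol and saline 30 min before 8.53 Gy, a dose that is lethal to 50% of mice. The labelled amount is 35 µg, while the labelled 3.5 µL of a stock of 0.1 mg/ml comes to 0.35 µg, and which of these was given is unclear. The groups used for comparison were 8 irradiated mice given the ethanol vehicle at each time and 7 non-irradiated mice given dmPGE2 at 1 h. HSC were sorted from bone marrow by a wide SLAM-LSK gate and by ZsGreen, so the label of the cells rests partly on Fgd5 itself. The labels give 8 mice of both sexes in each irradiated group, and ages were not used here.

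dmPGE2 is an analogue of prostaglandin E2 that is broken down more slowly than the natural lipid. Prostaglandin E2 binds the receptors encoded by Ptger1 to Ptger4, of which Ptger2 and Ptger4 raise cAMP, and cAMP acts through protein kinase A on CREB, a factor that drives immediate early genes. Ionizing radiation breaks DNA, stabilises p53 and lets it switch on genes of cell cycle arrest and of cell death, and HSC are known to depend on this response for their fate after radiation. Both pathways are fast, so an hour and a day after exposure sample different stages of them.

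Total counts ran from 21085900 to 25384366 per library at 1 h and from 17371333 to 22155084 at 24 h, a difference that passed an exact permutation test of 8 against 8 libraries (two-sided, p = 0.0057, adjusted p = 0.015 over 16 measures). Fewer genes had a count at 24 h (13368 to 14782) than at 1 h (14607 to 15299), with an exact permutation p of 0.00031 (adjusted p = 0.0017). HSC markers were present throughout: as CPM per kilobase of exon, Kit had medians of 256 at 1 h and 149 at 24 h and Procr 88.1 and 108. Genes known from other blood cells were present as well, with medians of 90.5 and 92.6 for S100a8 (neutrophils), 121 and 122 for Pf4 (platelets) and 43.6 and 4.49 for Mpo (granulocyte precursors). Single libraries differed widely, with S100a8 from 13.5 to 238.5 at 1 h and from 3.74 to 543 at 24 h. Pf4 ran from 84.95 to 187.9 and from 37.6 to 290, and Mpo from 4.01 to 132 and from 0.116 to 53.9. The B cell gene Cd79a had medians of 0.195 and 0.0562 and the endothelial gene Cdh5 stayed at or below 0.205. The 24 h libraries were less alike than those of 1 h: the median standard deviation of log2 CPM (CPM, the counts of a gene relative to its library's total, scaled by TMM) was 0.405 against 0.304. Libraries 5, 6 and 7 of 24 h, named male in the table, sat apart from the other 24 h libraries on the second principal component, and library 3, named female, sat apart in the opposite direction. Library 8, also named male, lay with libraries 1, 2 and 4. In sorted bulk samples fewer cells of a type and less RNA per cell cannot be told apart. Among the genes named here Bad, Casp9, Fosl1, Gnas, Ifi27, Ndufs1, Plk3, Ptger1 and Zmat3 share exonic bases with a gene on the opposite strand, and without strand their reads cannot be divided. The columns of the 2 times carry no tag in common, so anything else that differed between these sets of libraries cannot be told apart from time; a shift shared by all 24 h libraries cancels in the comparison with vehicle.

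**Figure D1:**
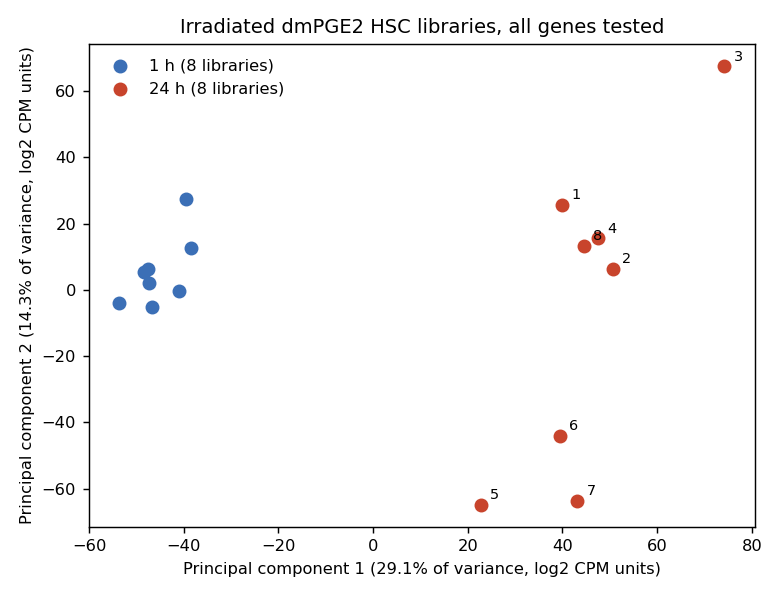
Each point is 1 library of irradiated dmPGE2 HSC, placed by its scores on the 2 leading principal components of log2 CPM over all genes tested, with blue for 1 h, red for 24 h and numbers for the 24 h libraries. The horizontal axis, with 29.1% of the variance, separates the times without overlap, and libraries 5, 6 and 7 lie between -64.9 and -44 on the vertical axis.

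Of 14061 genes tested, 2433 were higher at 24 h than at 1 h and 2469 were lower in edgeR's quasi-likelihood test at a Benjamini-Hochberg adjusted p below 0.05, which is 17.3% and 17.6% of the genes. A change of at least 2-fold was fitted for 637 of the former and 503 of the latter, and the median log2 fold change of all genes was -0.02. The 8 values of 24 h lay wholly above the 8 of 1 h for 504 genes (3.58%) and wholly below for 410 (2.92%). Among the genes whose log2 CPM averaged 4 or more, Serpine2, which encodes a secreted inhibitor of serine proteases, rose most, from 10.7 CPM (3.68 to 15.7) at 1 h to 533 CPM (248 to 763) at 24 h, each value being the median of 8 libraries with the lowest and the highest in parentheses, as throughout. Its log2 fold change was 5.76 ± 0.26 (SE; edgeR adjusted p = 2.3e-20). Sulf2, which encodes an enzyme that trims sulfate from heparan sulfate outside the cell, went from 5.71 CPM (2.24 to 8.21) to 224 CPM (149.8 to 300.3) with a log2 fold change of 5.37 ± 0.24. All 8 libraries of 24 h were above all 8 of 1 h for both genes, while with vehicle the medians went from 13.8 to 818 CPM for Serpine2 and from 6.47 to 216 CPM for Sulf2. The other genes with the highest changes at that level of expression were Phlda3, 9030617O03Rik, Fam198b, Dcxr, Crip2, Cox6b2, Gtse1, Cd53, Ephx1 and C920025E04Rik, with log2 fold changes from 4.28 down to 3.31. Dcxr (a carbonyl reductase) and Ephx1 (an epoxide hydrolase) are enzymes of small-molecule metabolism, and Cox6b2 encodes a subunit of cytochrome c oxidase. For Cd53, a tetraspanin of blood cells, library 5 stood at 1788 CPM against a median of 351, and its log2 fold change of 3.39 was 2.48 without libraries 5, 6 and 7. C920025E04Rik belongs to a family of near-identical histocompatibility genes, so its reads may be shared with its copies.

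Among the genes whose log2 CPM averaged 4 or more, the 12 with the lowest log2 fold changes were Cd69, Nr4a1, Dusp1, Vegfa, Fos, Plaur, Sik1, Zfp36, Dusp5, Klf2, Nrarp and Tnfaip3. Cd69, an early activation antigen that keeps lymphoid cells in tissue, went from 316 CPM (205 to 658) at 1 h to 9.65 CPM (5.08 to 15.9) at 24 h, a log2 fold change of -5.17 ± 0.29 (edgeR adjusted p = 2.8e-17). Vegfa, the vascular endothelial growth factor, fell from 186 CPM (142 to 220.5) to 11.5 CPM (4.79 to 15), and Nrarp, a feedback inhibitor of Notch signalling, fell from 156 CPM (83.4 to 196) to 17.6 CPM (13.9 to 24.6). In each of these genes the highest library of 24 h was below the lowest of 1 h. Klf2 was the exception among the 12, since library 5 of 24 h held 219.5 CPM beside a median of 5.61 and so reached into the 1 h range of 92.1 to 489.7; its log2 fold change of -3.12 became -5.11 without library 5.

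The p53 list held 46 tested genes, of which 31 rose and 5 fell from 1 h to 24 h, against 17.3% and 17.6% of all genes tested, with a median log2 fold change of 1.48. The windows below are shown because Cdkn1a and Ccng1 are 2 of the p53 genes measured and their upstream letters hold a p53 response element. Each is the 250 bases before a RefSeq gene start (GRCm38.p6), 5′ to 3′ on the strand of the gene, with the element in capitals.
Cdkn1a (chr17:29090729-29090978, plus strand): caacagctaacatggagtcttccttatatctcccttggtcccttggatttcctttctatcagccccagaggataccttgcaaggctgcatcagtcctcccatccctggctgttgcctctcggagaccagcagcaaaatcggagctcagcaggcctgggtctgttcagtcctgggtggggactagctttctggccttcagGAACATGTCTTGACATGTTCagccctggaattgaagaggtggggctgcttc
Ccng1 (chr11:40755287-40755536, minus strand): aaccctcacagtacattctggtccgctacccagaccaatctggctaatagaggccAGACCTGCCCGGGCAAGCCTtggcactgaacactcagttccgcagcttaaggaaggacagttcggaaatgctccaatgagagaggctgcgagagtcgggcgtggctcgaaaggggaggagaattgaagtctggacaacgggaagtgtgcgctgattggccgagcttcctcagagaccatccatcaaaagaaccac
The element was searched as the full p53 consensus of 20 letters with no spacer and at most 1 mismatch, which reads alike on both strands. It was found for 2 of the 36 list genes with a window and for 25 of 27025 genes of the whole promoter table (0.0925%). The Cdkn1a window lies before the upstream of 2 annotated starts of that gene.

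Ccng1, which encodes cyclin G1, rose from 193 CPM (105 to 256) at 1 h to 1583 CPM (965 to 1784) at 24 h, a log2 fold change of 3.02 ± 0.14 (edgeR adjusted p = 6.8e-21). Cdkn1a, the inhibitor of cyclin-dependent kinases known as p21, rose from 299 CPM (225 to 406) to 594 CPM (488 to 785), by 0.97 ± 0.13 on the log2 scale (adjusted p = 7.7e-08). Every 24 h library was above every 1 h library for both. Among feedback genes, 5 of 7 rose. Mdm2, the ligase that marks p53 for degradation, went from 119 CPM (86.7 to 131) to 331 CPM (188 to 381), and Zmat3, an RNA-binding target of p53, from 2.25 CPM (0.764 to 3.57) to 82.4 CPM (53.6 to 100.2). Both rose without overlap between the times. Transcripts of p53 itself, from Trp53, did not pass the test, with 273 CPM (242 to 336) at 1 h and 285 CPM (208 to 352) at 24 h (log2 fold change -0.05 ± 0.09, adjusted p = 0.73).

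Of the genes of cell death 12 of 13 rose and none fell. Bbc3, which encodes the BH3-only protein PUMA, stood at 21.2 CPM (11.4 to 41.8) at 1 h and 127 CPM (94.5 to 176) at 24 h, and rose by 2.46 ± 0.19 on the log2 scale. Bax, the pore-forming effector of mitochondrial apoptosis, went from 67.2 CPM (56.8 to 79.6) to 388 CPM (355 to 429), and its groups were far apart and narrow. Eda2r, a death-domain receptor of the TNF receptor family, rose from 3.5 CPM (1.15 to 6.79) to 88.2 CPM (39 to 145), and Trp53inp1, a cofactor of p53 in stress, from 44.8 CPM (21.5 to 79.7) to 345 CPM (280.3 to 418). Of the arrest genes 4 of 11 rose (Cdkn1a, Gtse1, Sesn2 and Ddit4l) and 5 fell (Btg2, Plk2, Plk3, Sesn1 and Ddit4). Sesn2, a sestrin that restrains mTORC1, went from 37.9 CPM (23.1 to 66.1) to 259 CPM (147 to 349). Of the genes of metabolism and repair 10 of 15 rose and none fell. Phlda3, which competes with AKT for membrane lipids, had the highest fold change among them, with 16.8 CPM (10.8 to 47.9) at 1 h and 412 CPM (181 to 539) at 24 h.

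Vehicle mice took another course in these genes. With vehicle, 21 of the 46 genes were higher at 24 h than at 1 h and 13 lower (background 22.8% and 26.5% of all genes), and the median log2 fold change was 0.15. The change with dmPGE2 exceeded the change with vehicle in 24 of 46 genes and was below it in 2 (Gadd45g and Perp), against 11.9% and 11.7% of all genes tested for this difference of changes. Bbc3 had 291 CPM (235 to 393) with vehicle at 1 h, above the highest dmPGE2 library of that time (41.8 CPM), while at 24 h the vehicle level of 116 CPM (103 to 134) lay within the range of dmPGE2. The difference of changes was 3.78 ± 0.27 on the log2 scale (edgeR adjusted p = 1.2e-13). Phlda3 stood at 401 CPM (276 to 494) at 1 h and 378 CPM (329.6 to 458) at 24 h with vehicle, a difference of changes of 4.34 ± 0.29 (adjusted p = 2.4e-14). Gdf15, a stress-induced member of the TGF-beta family, showed the widest gap: with vehicle it went from 1219 CPM (830.4 to 1523) down to 104 CPM (76.5 to 119), and with dmPGE2 from 27.3 CPM (14.3 to 98.6) up to 150.2 CPM (18 to 383), a difference of 5.92 ± 0.53 (adjusted p = 2.9e-10). The non-irradiated dmPGE2 mice held medians of 9.7 CPM for Bbc3, 3.43 for Phlda3 and 1.47 for Gdf15 at 1 h. Bax differed less between the treatments, since it was low at 1 h in both treatments (medians 67.2 and 95.1 CPM) and high at 24 h in both (388 and 424), with a difference of changes of 0.32 ± 0.10 (adjusted p = 0.019). When libraries 5, 6 and 7 of 24 h were left out, 31 p53 genes rose and 6 fell over time with dmPGE2.

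**Figure D2:**
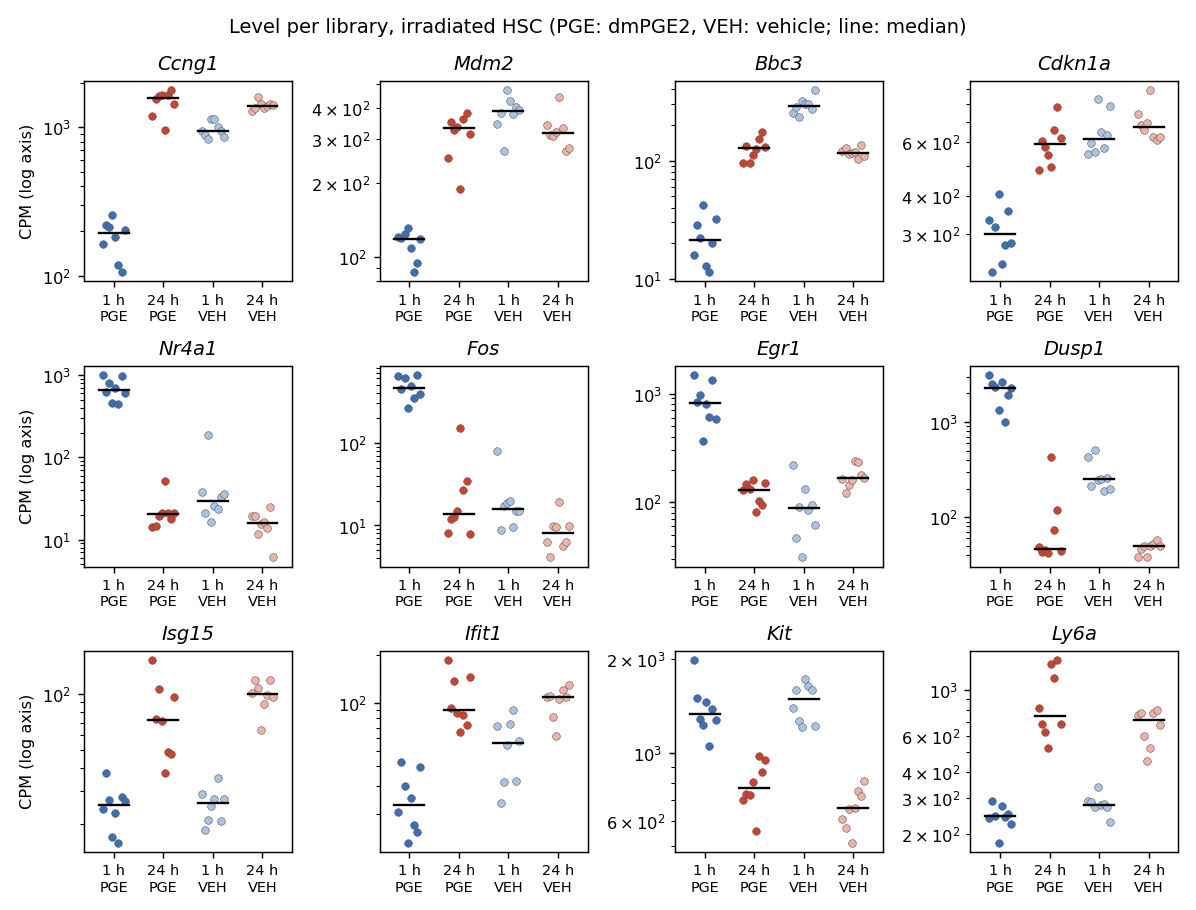
CPM of 12 genes on log axes in each library of the 4 irradiated groups, with dmPGE2 (PGE) and vehicle (VEH) at 1 h and 24 h and a line at each median. In Ccng1 and Bbc3 the 1 h dmPGE2 libraries lie below those of the other 3 groups, in Nr4a1, Fos and Egr1 above them, and Kit and Ly6a shift with time in both treatments.

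**Figure D3:**
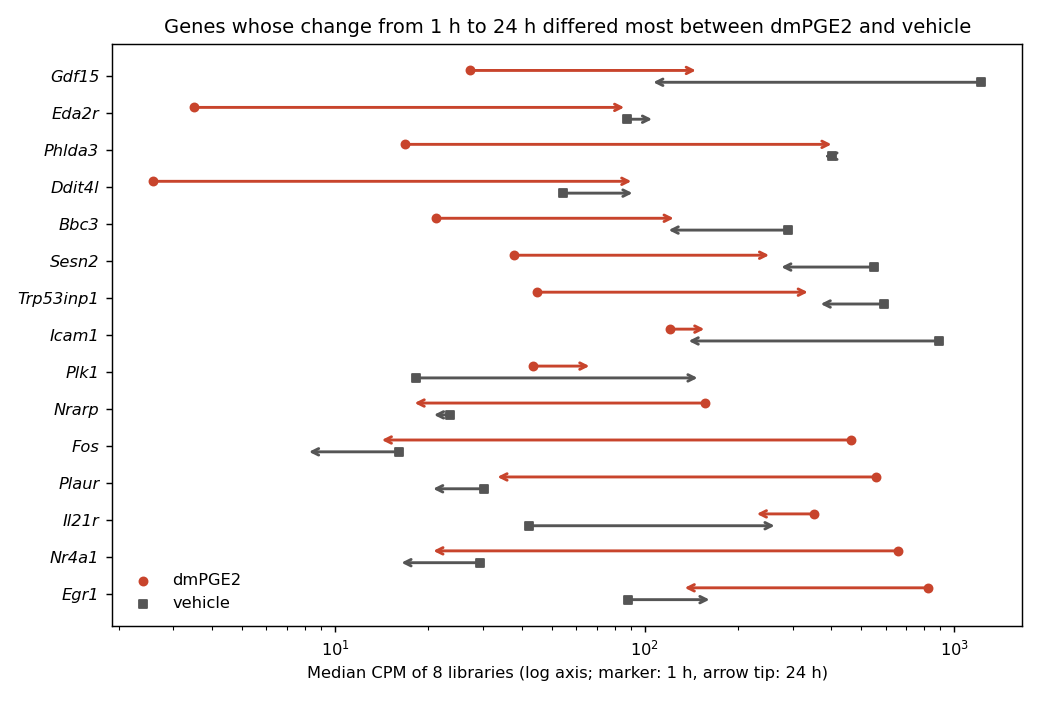
Arrows run from the median CPM at 1 h to the median at 24 h (log axis) for 15 of the genes with the most different changes, in red for dmPGE2 and in grey for vehicle, 8 libraries per median. For the 7 p53 genes at the top the arrows start far apart and end close together, as in Bbc3, where both end between 116 and 127 CPM.

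Immediate early genes were the list with the lowest median change: 29 of 36 fell, 2 rose (Fosl1 and Ier5), and the median log2 fold change was -2.17. The promoters of Nr4a1, Fos and Dusp1 are shown because these genes fell furthest within the list and their windows hold letters of the cAMP response element. Capitals mark TGACG, the left part of that element, on either strand; in Dusp1 the full palindrome TGACGTCA is among them, since the shorter motif lies within it on both strands.
Nr4a1 (chr15:101266596-101266845, plus strand): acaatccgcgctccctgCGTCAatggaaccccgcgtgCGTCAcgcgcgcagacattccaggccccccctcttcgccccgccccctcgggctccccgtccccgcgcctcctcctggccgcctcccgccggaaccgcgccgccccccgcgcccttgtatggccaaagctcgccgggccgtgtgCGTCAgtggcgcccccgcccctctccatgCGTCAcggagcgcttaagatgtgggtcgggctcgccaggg
Fos (chr12:85473640-85473889, plus strand): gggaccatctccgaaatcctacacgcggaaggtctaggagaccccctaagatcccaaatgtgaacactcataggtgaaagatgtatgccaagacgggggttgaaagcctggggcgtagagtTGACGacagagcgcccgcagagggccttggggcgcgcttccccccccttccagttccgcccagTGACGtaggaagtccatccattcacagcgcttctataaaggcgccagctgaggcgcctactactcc
Dusp1 (chr17:26508473-26508722, minus strand): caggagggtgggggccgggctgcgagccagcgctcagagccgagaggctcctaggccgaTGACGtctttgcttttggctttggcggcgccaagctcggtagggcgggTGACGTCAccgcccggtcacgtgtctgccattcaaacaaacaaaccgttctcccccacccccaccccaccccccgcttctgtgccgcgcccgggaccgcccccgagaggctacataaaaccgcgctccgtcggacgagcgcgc
TGACG was found for 17 of the 28 list genes with a window (60.7%), for 19.8% of all genes of the promoter table and for 29.8% of the 10662 tested genes with a window. The full TGACGTCA was found for 3 of these 28 list genes (10.7%), for 1.77% of all genes of the table and for 2.97% of the tested genes with a window. In the p53 list it was found for 3 of 36 genes with a window (8.33%).

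Nr4a1, an orphan nuclear receptor induced within minutes of many stimuli, went from 659 CPM (441 to 993) at 1 h to 20.2 CPM (14.1 to 51.8) at 24 h, a log2 fold change of -4.96 ± 0.43 (edgeR adjusted p = 1.6e-11). Fos, a subunit of the AP-1 factor, went from 462 CPM (266 to 656) to 13.8 CPM (7.89 to 153), a log2 fold change of -3.84 ± 0.57, and the AP-1 genes of the list fell in 8 of 9 cases. Dusp1, a phosphatase that switches off MAP kinases, went from 2282 CPM (1000.0 to 3097) to 46.8 CPM (42.3 to 431), a log2 fold change of -4.34 ± 0.42. Egr1, a zinc-finger factor that restrains HSC division and exit from the niche, fell less, from 820.0 CPM (369 to 1471) to 131 CPM (82.2 to 161), a log2 fold change of -2.80 ± 0.31. The groups did not overlap in these 4 genes, but library 5 was the highest of 24 h in Nr4a1, Fos and Dusp1, and without it the log2 fold changes were -5.25, -4.85 and -5.17. Other members that fell were Zfp36, which destabilises inflammatory mRNA (-3.25), Nr4a2 (-3.58), Dusp5 (-3.13) and Maff (-2.90). Myc, which belongs to the list, held 305 CPM (256 to 462) at 1 h and 321 CPM (184 to 359) at 24 h and did not pass the test (adjusted p = 0.54).

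With vehicle 27 of the 36 genes also fell over the day and 3 rose. The change with dmPGE2 was below that with vehicle in 11 genes and above it in 7, against 11.7% and 11.9% of all genes tested. Nr4a1 held 29.4 CPM (16.3 to 186) with vehicle at 1 h, under the lowest dmPGE2 library, and the difference of changes was -3.38 ± 0.53 (adjusted p = 2.2e-05). For Egr1 the courses ran in opposite directions, from 88 up to 166 CPM at the medians with vehicle and from 820.0 down to 131 CPM with dmPGE2, with a difference of -3.68 ± 0.43 (adjusted p = 7.4e-08). For Fos the difference was -2.46 ± 0.75 (adjusted p = 0.015) and -4.06 without libraries 5, 6 and 7. In non-irradiated dmPGE2 mice at 1 h Nr4a1 stood at 483 CPM (332 to 755), Fos at 289 CPM (168 to 1084) and Egr1 at 475 CPM (367 to 1313), all above the vehicle medians of irradiated mice.

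In the cAMP and CREB list 13 of 36 genes fell and 2 rose (Adora2b and Cited2), against 17.6% and 17.3% of all genes tested. The median log2 fold change was -0.18. Among the receptors and their G protein 1 of 8 genes fell (Gnas, the stimulatory G protein) and 1 rose (Adora2b, an adenosine receptor). Ptger4, which encodes the EP4 receptor, held 80.8 CPM (68.8 to 94.8) at 1 h and 68 CPM (52.6 to 141) at 24 h and did not pass the test (log2 fold change -0.02 ± 0.15, adjusted p = 0.95), whereas with vehicle it fell from 142 CPM (113 to 197) to 50.4 CPM (36.6 to 59.4), and the changes differed by 1.58 ± 0.21 (adjusted p = 5.7e-07). Ptger2, for the EP2 receptor, was near the limit of detection, at most 1.09 CPM at 1 h and 4.74 CPM at 24 h. Scaled to exon length in the same way as above, the medians at 1 h were 38.4 for Ptger3, 24.3 for Ptger4, 11.9 for Ptger1 and 0.114 for Ptger2. Among effectors, Pde4d, a phosphodiesterase that destroys cAMP, fell from 61 CPM (46.5 to 75.7) to 12.8 CPM (7.49 to 27.8). Of the target genes 9 of 16 fell. Sik1, a kinase that holds CREB coactivators in the cytoplasm, went from 379.8 CPM (216 to 518) to 26 CPM (12.8 to 121), and Crem, a repressor and activator of cAMP-responsive genes, from 167 CPM (77.8 to 228) to 16.1 CPM (11.3 to 106), where library 5 overlapped the 1 h range. Without libraries 5, 6 and 7 the log2 fold changes were -4.23 instead of -3.33 for Sik1 and -3.51 instead of -2.47 for Crem. The change with dmPGE2 was below that with vehicle in 8 genes and above it in 7, against 11.7% and 11.9% of all genes tested. Without libraries 5, 6 and 7 these counts were 13 and 4.

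NF-kB and inflammatory genes fell in 15 of 30 cases and rose in 2 (Icam1 and Csf1), against 17.6% and 17.3% of all genes tested. The median log2 fold change was -0.99. NF-kB is a factor that DNA breaks and cytokines release from its inhibitors. Tnfaip3, which encodes the A20 brake on this pathway, fell from 152 CPM (84.8 to 202) to 18.3 CPM (9.06 to 33.1), a log2 fold change of -2.98 ± 0.21 (edgeR adjusted p = 1.6e-14). Plaur, the urokinase receptor, fell from 557 CPM (378 to 687) to 32.5 CPM (22.8 to 179.6), with library 5 again the highest of 24 h. The chemokine gene Cxcl2 was between 49.8 and 121 CPM at 1 h and at or below 4.15 CPM at 24 h. In the absence of libraries 5, 6 and 7, 23 genes of the list fell. Over the day the change with dmPGE2 was above that with vehicle in 14 genes and below it in 2 (Plaur and F3), against 11.9% and 11.7% of all genes. At 24 h the list mean was 4.38, 3.96 and 4.15 log2 CPM in libraries 5, 6 and 7 of dmPGE2. The other dmPGE2 libraries of that time ranged from 3.12 to 3.45, and those of vehicle from 3.19 to 3.65. Icam1, an adhesion molecule for leukocytes, fell with vehicle from 894 CPM (764 to 1026) to 135 CPM (108 to 151) and rose with dmPGE2 from 121 CPM (101.1 to 171) to 160.0 CPM (143 to 258), a difference of 3.30 ± 0.17 (adjusted p = 6.5e-18). Tnfaip3 was higher with vehicle than with dmPGE2 in every library at 1 h, with 395 CPM (358 to 519), and its changes differed by 2.13 ± 0.29 (adjusted p = 8.8e-07). For Plaur the difference had the other sign, -2.53 ± 0.44, and the vehicle libraries of 1 h held 30.3 CPM (17.5 to 90.7).

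Type I interferon genes rose in 27 of 33 cases and none fell, with a median log2 fold change of 1.09. These genes answer interferon through a STAT and IRF9 complex that binds a response element whose core is the letters GAAA, any 2 bases, and GAAA again. That core, in capitals on either strand, is shown in the windows of Isg15 and Ifit1, which are among the members with the highest changes.
Isg15 (chr4:156200819-156201068, minus strand): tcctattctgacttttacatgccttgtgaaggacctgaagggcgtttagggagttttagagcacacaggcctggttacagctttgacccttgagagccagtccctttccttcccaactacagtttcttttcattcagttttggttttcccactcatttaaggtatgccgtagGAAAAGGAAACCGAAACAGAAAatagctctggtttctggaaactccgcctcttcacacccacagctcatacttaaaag
Ifit1 (chr19:34640639-34640888, plus strand): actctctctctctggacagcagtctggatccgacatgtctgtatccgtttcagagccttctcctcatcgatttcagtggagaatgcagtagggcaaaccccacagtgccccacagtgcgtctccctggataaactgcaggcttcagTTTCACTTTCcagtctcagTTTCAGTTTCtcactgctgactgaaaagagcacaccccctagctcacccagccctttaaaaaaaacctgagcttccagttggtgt
The core was present in the windows of 9 of 23 list genes (39.1%) and of 3.46% of all genes of the table. Isg15, a ubiquitin-like modifier, went from 25.2 CPM (15.8 to 37.6) at 1 h to 71.9 CPM (37.4 to 151) at 24 h (log2 fold change 1.67 ± 0.22, edgeR adjusted p = 8.9e-08), with 1 library of 24 h just under the highest of 1 h. Ifit1, which binds foreign RNA ends, went from 22.8 CPM (13.2 to 42.5) to 89.9 CPM (65.3 to 185), a log2 fold change of 2.10 ± 0.30, and its groups did not overlap. Ifit3, its partner, rose by 2.70 ± 0.37 and Rtp4, a chaperone of receptors, by 1.88 ± 0.19 on the log2 scale. Ifit1 and Ifit3 have close copies in the genome, so some of their reads may belong to these. The 24 h libraries differed, since library 1 had a list mean of 7.01 log2 CPM and the other 7 ranged from 6.04 to 6.39. With vehicle 24 of 33 genes rose and 1 fell, at a median of 1.10. The changes differed between treatments in 4 of 33 genes upward and 4 downward, close to the 11.9% and 11.7% of all genes tested. The former were Stat2, Irf9, Ifit1 and Parp14, and the latter included Bst2, Ifi27 and Ifi35. For Ifit1 the difference was 1.17 ± 0.41 (adjusted p = 0.034), beside vehicle medians of 55.8 and 109 CPM. Without libraries 5, 6 and 7 the change was above that of vehicle in 4 genes and below it in 0 of 33.

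**Figure D4:**
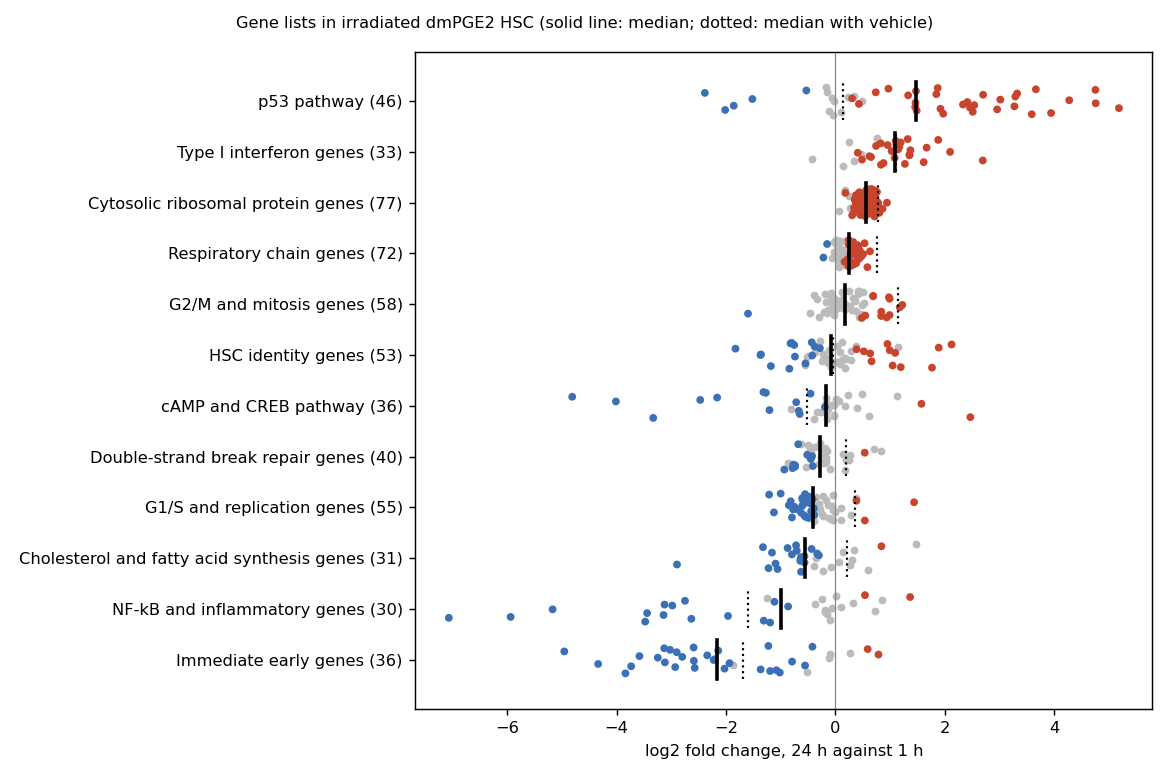
Log2 fold changes from 1 h to 24 h in irradiated dmPGE2 HSC for the tested genes of 12 lists, with red for genes that rose, blue for genes that fell and grey for those that did not pass the test. Solid lines mark the median with dmPGE2 and dotted lines the median with vehicle, which lie apart for the p53 list (1.48 and 0.15) and side by side for the interferon list (1.09 and 1.10).

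Genes of DNA replication were lower at 24 h in 25 of 55 cases and higher in 3 (Ccnd1, Orc6 and Rrm2), against 17.6% and 17.3% of all genes tested. The median log2 fold change was -0.42. Pold1, the catalytic subunit of DNA polymerase delta, went from 268 CPM (237 to 437) to 165 CPM (83.7 to 233), a log2 fold change of -0.999 ± 0.163 (edgeR adjusted p = 6e-06), and Mcm3, a subunit of the replicative helicase, from 622 CPM (547 to 949) to 369.7 CPM (193 to 601), a log2 fold change of -0.85 ± 0.16. Ccnd1, the G1 cyclin D1, rose from 19.4 CPM (14.7 to 25.4) to 47.1 CPM (10.8 to 112), a log2 fold change of 1.44 ± 0.31, and by 2.08 without libraries 3, 5, 6 and 7. A microRNA gene shares 20 exonic bases with Ccnd1. The spread within 24 h was wide: the list mean was 5.60, 5.401 and 5.33 log2 CPM in libraries 5, 6 and 7, and 6.20 to 6.66 in the other 5, while the 1 h libraries ranged from 6.25 to 7.02. Once libraries 5, 6 and 7 were set aside, 11 genes fell, 4 rose and the median was -0.10. With vehicle the same list rose in 28 cases and fell in 1. The change with dmPGE2 was below that with vehicle in 39 of 55 genes and above it in none, and in 28 of 55 without those libraries.

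Genes of G2 and mitosis rose in 12 of 58 cases with dmPGE2 and fell in 1, which is Mki67, against 17.3% and 17.6% of all genes tested. With vehicle 52 of 58 rose, against 22.8% of all genes. Leaving out libraries 5, 6 and 7 gave 18 that rose with dmPGE2. The median log2 fold change of the list, with all libraries, was 0.17 with dmPGE2 and 1.14 with vehicle. Ccnb1, the mitotic cyclin B1, went from 92.3 CPM (47.5 to 146) to 209.5 CPM (59.9 to 248) with dmPGE2 (0.99 ± 0.24, adjusted p = 0.001) and from 57.4 CPM (31.6 to 100.7) to 412 CPM (284 to 542) with vehicle, so that at 24 h every vehicle library was above every dmPGE2 library. The changes differed by -1.78 ± 0.33 (adjusted p = 0.00018). Cdk1, the kinase of cyclin B, rose from 100.6 CPM (63.1 to 149) to 139.9 CPM (66.6 to 194), a log2 fold change of 0.48 ± 0.17 (adjusted p = 0.026), a call that was lost when library 2, 4 or 8 of 24 h or library 1 or 2 of 1 h was left out, and with vehicle from 75.6 to 274 CPM at the medians. Its difference of changes was -1.45 ± 0.24 (adjusted p = 4.1e-05). Plk1, a mitotic kinase, had the lowest difference of changes of the list, -2.32 ± 0.34 (adjusted p = 5.1e-06), with vehicle libraries of 18.2 CPM (10.4 to 25.7) at 1 h and 152 CPM (98.6 to 194) at 24 h. Mki67, a chromosome coat protein of cycling cells, fell in both treatments, from 40.8 CPM (5.5 to 127) to 13.2 CPM (6.45 to 33.6) with dmPGE2 and from 36.6 CPM (5.69 to 93.8) to 13.9 CPM (10.8 to 22.8) with vehicle. Over the whole list the change with dmPGE2 was below that with vehicle in 41 of 58 genes; 23 were left without libraries 5, 6 and 7, and 17 without library 3 as well.

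**Figure D5:**
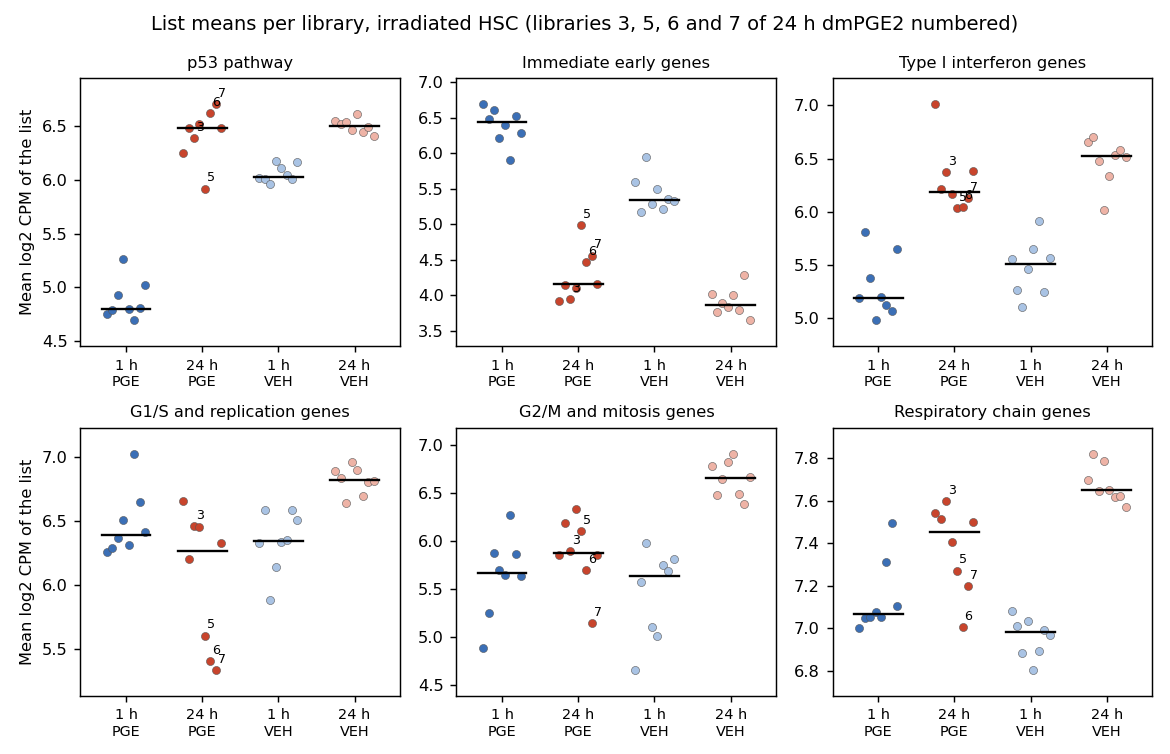
Mean log2 CPM of 6 gene lists in each library of the 4 irradiated groups, with a line at each median and numbers on libraries 3, 5, 6 and 7 of 24 h dmPGE2. Libraries 5, 6 and 7 lie below all others of their group in the replication list, at 5.33 to 5.60, and above them in the immediate early list, at 4.46 to 4.99.

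Repair genes for double-strand breaks fell in 10 of 40 cases and rose in 1 (Chek2), against 17.6% and 17.3% of all genes tested. Parp1, which marks DNA breaks with poly(ADP-ribose), went from 319.8 CPM (201 to 428) to 185 CPM (119 to 251), a log2 fold change of -0.78 ± 0.14 (edgeR adjusted p = 3.1e-05), and Brca2, a gene of homologous recombination, from 32.1 CPM (17.6 to 58) to 18.4 CPM (9.25 to 26.9), a log2 fold change of -0.93 ± 0.22. Both ranges overlapped between the times, and Parp1 shares 7 exonic bases with a microRNA gene. Without libraries 5, 6 and 7, 6 genes of the list fell and 3 rose. Cytosolic ribosomal protein genes rose in 72 of 77 cases and none fell, by a median of 0.57 with dmPGE2 and 0.77 with vehicle. Rps19, a small-subunit protein needed for red cell formation, went from 654 CPM (591 to 867) to 1283 CPM (1048 to 1337), a log2 fold change of 0.86 ± 0.09. The share of all counts in ribosomal protein genes was 2.25% to 3.28% at 1 h and 3.14% to 4.09% at 24 h (exact permutation test, adjusted p = 0.0017). Many of these genes have processed copies in the genome, so reads may be shared. Genes of the respiratory chain rose in 38 of 72 cases and fell in 2 (Ndufs1 and Sdha), with a median of 0.25, and with vehicle in 70 cases, with a median of 0.76. Cox4i1, a core subunit of cytochrome c oxidase, went from 343 CPM (320.1 to 547) to 527 CPM (428 to 589), a log2 fold change of 0.54 ± 0.09. The change with dmPGE2 was below that with vehicle in 62 of 72 respiratory and 12 of 77 ribosomal protein genes, against 11.7% of all genes. Without libraries 5, 6 and 7 these counts were 41 and 0.

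Genes of cholesterol synthesis and uptake fell in 15 of 22 cases and none rose. Insig1, which retains the SREBP activators in the endoplasmic reticulum, fell from 47.8 CPM (35.2 to 65.5) to 22.1 CPM (11.6 to 27.3), a log2 fold change of -1.22 ± 0.16 (edgeR adjusted p = 1.3e-07), with no overlap. With vehicle 10 of the 22 genes rose and 2 fell, and the changes with dmPGE2 were below those with vehicle in 16 genes and above them in 0. Of glycolysis and hypoxia genes 12 of 34 fell and 5 rose, beside 17.6% and 17.3% of all genes tested. Those that rose were the glycolytic enzymes Aldoa, Gapdh, Pgk1, Pgam1 and Ldha. Egln3, an oxygen-sensing prolyl hydroxylase, fell from 126 CPM (76.7 to 163) to 17.4 CPM (11.9 to 24.6), and Hk2, a hexokinase, from 255 CPM (209 to 339.7) to 58.3 CPM (35.3 to 174). Of heat shock genes 6 of 19 fell and none rose, beside 17.6% and 17.3% of all genes, at a median of -0.24. In the absence of libraries 5, 6 and 7, 4 fell, 1 rose and the median was 0.00693. Of antioxidant genes 7 of 29 rose and 11 fell, beside 17.3% and 17.6% of all genes. Hmox1, the heme oxygenase, was among those that rose (1.38 ± 0.28).

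Among genes of the BCL2 and IAP families 5 of 24 rose (Bcl2l1, Bcl2l2, Xiap, Bak1 and Bad) and 4 fell (Mcl1, Bag3, Bcl2l11 and Casp9), beside 17.3% and 17.6% of all genes tested. The call of Bag3 was lost when library 2, 3 or 7 of either time was left out. Mcl1, an anti-apoptotic member on which HSC depend, fell from 561 CPM (446 to 639) to 348 CPM (321 to 697), a log2 fold change of -0.52 ± 0.11 (edgeR adjusted p = 0.00038), where library 5 was the highest of all 16. Bcl2 held 82 CPM (69.4 to 116) and 81.6 CPM (71.4 to 130.2) and did not pass the test (adjusted p = 0.84). Bcl2l11, which encodes the BH3-only protein BIM, fell from 47 CPM (37.7 to 69) to 18.3 CPM (10.04 to 23.1), a log2 fold change of -1.49 ± 0.22, and its changes differed from vehicle by -1.19 ± 0.31 (adjusted p = 0.0044). In prostanoid metabolism 5 of 15 genes rose (Ptgs1, Ptges, Pla2g4a, Alox5 and Alox5ap) and 3 fell (Ptgs2, Tbxas1 and Hpgd), beside 17.3% and 17.6% of all genes. The median log2 fold change of this list was 0.11. Ptgs2, the inducible cyclooxygenase, fell from 16.8 CPM (7.2 to 30.6) to 2.61 CPM (2.06 to 4.98), while Ptges, the terminal synthase of prostaglandin E2, rose from 14.5 CPM (5.84 to 22) to 28.6 CPM (16.9 to 56.2). Alox5, which starts leukotriene synthesis, rose from 4.29 CPM (0.877 to 5.89) to 29.3 CPM (8.89 to 72.8), and Hpgd, which inactivates prostaglandin E2, fell from 11.4 CPM (5.72 to 22) to 5.71 CPM (4.32 to 7.64).

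Of HSC identity genes 12 of 53 rose and 14 fell by 24 h, beside 17.3% and 17.6% of all genes tested, with a median log2 fold change of -0.08. With libraries 5, 6 and 7 left out, 11 rose, 21 fell and the median was -0.19. Ly6a, which encodes the Sca-1 antigen of the sorting gate, rose from 243 CPM (181 to 290.0) to 749.9 CPM (523 to 1391), a log2 fold change of 1.89 ± 0.16 (edgeR adjusted p = 1.2e-12), and Kit, the receptor of stem cell factor and the other antigen of that gate, fell from 1328 CPM (1052 to 1985) to 770.3 CPM (557 to 973), a log2 fold change of -0.82 ± 0.11 (adjusted p = 1.4e-07). Neither pair of groups overlapped, and with vehicle Ly6a went from 278 to 717 CPM and Kit from 1491 to 659.7 CPM at the medians. The HSC marker genes Procr, Slamf1 and Fgd5 did not pass the edgeR test, with log2 fold changes of 0.39, -0.37 and -0.28 (adjusted p = 0.12, 0.072 and 0.13). Without library 5, Slamf1 and Fgd5 passed it at -0.53 and -0.36. Of 27 transcription factors 10 fell and 6 rose. Gata2, a factor of stem cell maintenance, fell from 625 CPM (431 to 781) to 305 CPM (258 to 509.5), a log2 fold change of -0.84 ± 0.12, and differed in its change from vehicle by -0.82 ± 0.17 (adjusted p = 0.00048). Gfi1, a repressor that limits HSC cycling, rose from 7.12 CPM (2.26 to 21.7) to 19.1 CPM (13.2 to 80.6), a log2 fold change of 1.77 ± 0.42, and by 0.99 without libraries 5, 6 and 7. Among genes of homing 7 of 23 rose and 2 fell (Selplg and Angpt1), beside 17.3% and 17.6% of all genes, at a median of 0.25. Without libraries 5, 6 and 7, 4 of them rose and 5 fell, at a median of 0.07. Itgb2, the beta chain of leukocyte integrins, rose from 81.5 CPM (64.6 to 111) to 186 CPM (135 to 230.5) without overlap (1.16 ± 0.13). Cxcr4, the receptor that holds HSC in the marrow, rose from 12.7 CPM (8.18 to 21.9) to 19.9 CPM (14.6 to 43.3), a log2 fold change of 0.75 ± 0.22 (adjusted p = 0.0064), but not without libraries 5, 6 and 7 (0.45, adjusted p = 0.11).

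Markers of other cell types were followed over the same libraries. Of 10 summed lists, those of B cells, of mast cells and basophils, and of endothelium differed between the times in exact permutation tests of 8 against 8 libraries (two-sided, adjusted over 16 measures). The B cell sum was 42.5 to 79.2 CPM at 1 h and 59.98 to 105 at 24 h (adjusted p = 0.01, exact), with 2 of 7 tested genes higher (Cd79b and Vpreb1) and 2 lower, among them Cd79a. Both lower calls were lost with DESeq2's size factors in edgeR, with upper quartile scaling, when only the groups compared were fitted, and without library 5 of 24 h. The mast cell and basophil sum was 474 to 868 CPM at 1 h and 296 to 528 at 24 h (exact adjusted p = 0.0031). That sum contains Gata2, the stem cell factor described above, with a log2 fold change of -0.84. Gata2 was the 1 gene called lower among the 8 tested of that list, and 0 were called higher. The sum without Gata2 was not tested. The endothelial sum was 863 to 1337 and 742 to 1043 CPM (exact adjusted p = 0.02). Its members Tie1 (-0.41) and Egfl7 (-0.41) fell. The call of Egfl7 was lost when library 4 of 24 h or library 7 of 1 h was left out, or when only the groups compared were fitted. Cldn5, a tight junction gene, rose by 2.94, and by 2.13 without libraries 5, 6 and 7. Monocyte genes rose in 5 of 17 cases (3 without libraries 5, 6 and 7) and fell in 1, against 17.3% and 17.6% of all genes. Their sum did not pass the exact permutation test (adjusted p = 0.24). Cd68, a lysosomal glycoprotein, rose most, from 30.3 CPM (22.4 to 51.2) to 139 CPM (96.6 to 205) with no overlap. Scaled to exon length, its medians went from 24.3 to 111 with dmPGE2 and from 32.7 to 98.5 with vehicle. On that scale Csf1r, also a monocyte marker, had medians of 5.54 (2.85 to 8.98) and 3.56 (1.53 to 5.71) with dmPGE2. The gene that fell was Irf8, a factor of monocyte fate, from 56.9 CPM (38.7 to 79.5) to 17.5 CPM (11.3 to 30.4). Elane, the neutrophil elastase gene, fell from 35.4 CPM (2.5 to 79.1) to 2.74 CPM (0.275 to 7.8) (adjusted p = 0.013, and 0.052 without libraries 5, 6 and 7), and Prtn3, another granule protease, rose from 156 CPM (104 to 184) to 252 CPM (207 to 352). The globin genes Hba-a2, Hbb-bs and Hbb-bt had no count in any of the 16 libraries; they have near-identical copies, so their level is uncertain. The stromal genes Col1a2 and Sparc rose, with up to 182 and 67.6 CPM at 24 h; without library 1 their log2 fold changes were 0.81 and 1.02 in place of 1.497 and 2.04 and did not pass the test (adjusted p = 0.058 and 0.14). The part of these cells in the results above was not tested.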

How the data were processed

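RNA from sorted HSC was amplified by the SMART-Seq v4 kit and tagmented by Nextera XT according to the labels, a route that marks neither strand nor single molecules. The authors deposited 1 table of read counts per gene, in whole numbers without normalization. Per the submitters' processing notes the tools were STAR 2.5.2b and featureCounts of Subread 1.5.1 with the mm10 genome; the sources used here do not give the annotation, the strand setting or how multi-mapping reads were handled. Columns were assigned to groups by name and, where a name left something out, by elimination against the labels. Names with 24 h do not state radiation, and the only labelled dmPGE2 group of 24 h is irradiated. The 8 vehicle columns of 24 h were taken as irradiated because only that vehicle group of 24 h has 8 samples. Names without 24 h do not state a time and were taken as 1 h. Comparisons with vehicle rest on this assignment. The replicate number counts columns within a group. Another 15 columns, of non-irradiated vehicle mice, were not used because their names do not tell 1 h from 24 h.

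Of 24421 genes, 14061 passed edgeR's filter at a count minimum of 10. edgeR 4.0.16 (R 4.3.3) fitted its robust quasi-likelihood model with TMM scaling and 1 mean per group to 39 libraries of 5 groups, which share 1 estimate of the spread. The contrasts were 24 h against 1 h with dmPGE2, the same with vehicle, and the difference between them; p-values were adjusted by Benjamini-Hochberg over all genes tested. CPM are scaled by TMM and medians are over libraries, marker sums are unscaled CPM, and principal components used log2 CPM with a prior count of 3. Levels per kilobase used the exon lengths of the deposited table. p-values measure the spread between libraries, each from another mouse according to the labels. The fit was also run on simulated counts with the same spread for every gene and group and without libraries that sit apart. That run cannot speak for the p-values under the wider spread of the 24 h libraries.

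Named genes were the 12 highest and 12 lowest fold changes, up to 5 called members of each list, the 8 highest and 8 lowest differences between treatments, and a fixed set of pathway genes. Members outside this rule, given beside counts of 5 or fewer or as examples, were chosen after their values were seen. Results on some items are not reported here. Members and lists were chosen with earlier results of these data known. Promoter windows are RefSeq's (GRCm38.p6), matched by symbol for 10662 of the genes tested. Alternatives were other scalings, DESeq2 1.42.0, no filter, a minimum fold of 1.5, the groups of the contrast alone, and libraries left out singly or together.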

Additional observations from a re-analysis of the deposited data

Results flagged for a closer look

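Library 5 of 24 h was the outermost of its group by a wide gap in 11 genes (Dixon's test at the 95% level, 8 libraries per group). It was the highest in Dusp1 at 431 CPM (others 42.3 to 119), Zfp36 at 232 CPM (38.8 to 87.2), Plaur at 180 CPM (22.8 to 45.9), Nr4a1 at 51.8 CPM (14.1 to 21.2), Dusp5 at 41.8 CPM (14.1 to 21.5), Mcl1 at 697 CPM (321 to 379) and Cxcr4 at 43.3 CPM (14.6 to 23.2). It was the lowest in Crip2 at 17.2 CPM (67.1 to 101.2), Dcxr at 127 CPM (others 260 to 477), Gtse1 at 85.9 CPM (224 to 268) and Phlda3 at 181 CPM (347 to 539). Library 7 of 24 h was the lowest in Cox6b2 at 91.1 CPM (207 to 360) and Serpine2 at 248 CPM (497 to 763), library 8 in Vegfa at 4.79 CPM (8.96 to 15), and library 4 was the highest in Bcl2 at 130 CPM (71.4 to 94.4). Library 1 of 24 h had the highest mean of the type I interferon list, 7.01 log2 CPM against 6.04 to 6.39.

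Among the 1 h libraries, library 6 was the lowest in C920025E04Rik at 6.7 CPM (10.4 to 15.3) and Nrarp at 83.4 CPM (140 to 196). Library 7 was the highest in Cox6b2 at 29 CPM (15.1 to 20.2), in the mean of the cytosolic ribosomal protein list at 8.23 log2 CPM (7.61 to 7.8) and in the share of counts in ribosomal protein genes at 3.28% (2.25% to 2.45%). In all, 21 of 112 groups of values stood out in this way, and chance gives about 1 in 20.

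The change from 1 h to 24 h differed between dmPGE2 and vehicle, as a log2 difference with an edgeR adjusted p below 0.05, in 15 of the genes named for this contrast. It was higher with dmPGE2 in Gdf15 (5.92), Eda2r (4.59), Phlda3 (4.34), Ddit4l (3.85), Bbc3 (3.78), Sesn2 (3.75), Trp53inp1 (3.65) and Icam1 (3.3). It was lower with dmPGE2 in Egr1 (-3.68), Nr4a1 (-3.38), Il21r (-3.28), Plaur (-2.53), Fos (-2.46), Nrarp (-2.41) and Plk1 (-2.32). Il21r, a cytokine receptor gene, held medians of 351 and 224 CPM with dmPGE2 and 42.3 and 269.7 CPM with vehicle at 1 h and 24 h.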

How the results depend on the processing

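With a minimum fold of 1.5 in the test, 493 genes were higher and 348 lower at 24 h with dmPGE2, and 262 and 111 differed upward and downward from vehicle in their change. Without libraries 5, 6 and 7 of 24 h, 1110 genes changed more upward than with vehicle, and without libraries 3, 5, 6 and 7, 1066 upward and 1059 downward. Leaving out 1 library at a time gave 2206 to 2486 higher and 2297 to 2665 lower genes, and 1453 to 1783 and 1412 to 1808 for the difference from vehicle. Other scalings, DESeq2 and no filter kept these counts within 1.5 times. A fit with the tag of the column names as a replicate block gave 1702 and 1643 genes for the difference from vehicle; libraries that share a tag correlated above 0.1 in their deviations in 7 of 8 pairs at 1 h and 0 of 8 at 24 h, and 6 and 3 of 8 correlated best with their own tag. Not every pair passed 0.1, so the block was not used, and times share no tag. Of 200 results for named genes, 116 kept their direction and side of the threshold in every setting and 4 changed sign, none of which passed the test: Ptger4 (0.007202 with upper quartile scaling, -0.1803 to 0.05073 leaving out 1 library), Bcl2 (0.08081 and 0.1048 without libraries 5 to 7 and 3, 5 to 7, -0.1443 to 0.02617 leaving out 1 library), Trp53 (0.1274 and 0.1368 without the same) and Ptger2 (-0.4449 without libraries 3, 5, 6 and 7). The cause of these shifts was not tested. Genes near 0 CPM, such as Ptger2 and Cxcl2, are limited by depth.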

Other observations

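Among circadian clock genes 3 of 19 genes rose and 3 fell, beside 17.3% and 17.6% of all genes tested. Per1, a repressor of the clock that light and cAMP induce, fell from 196 CPM (148 to 242) at 1 h to 32.6 CPM (11.4 to 111) at 24 h (log2 fold change -2.14 ± 0.28, edgeR adjusted p = 1.3e-07), and its log2 fold change was -2.85 without libraries 5, 6 and 7. Tef, a clock output factor, rose from 47.9 CPM (30.1 to 56.8) to 106 CPM (66.5 to 139). The change with dmPGE2 was above that with vehicle in 6 genes of the list and below it in 0. Genes of lymphoid priming rose in 4 of 10 cases, against 17.3% of all genes, and none fell, but without libraries 5, 6 and 7 the calls were 2 higher and 2 lower. The median log2 fold change of this list was 0.22, with members from -2.59 to 3.28. Il12a, a cytokine subunit, went from 7.36 CPM (4.91 to 10.5) to 23 CPM (18.6 to 27.6) and Wfdc17, a secreted protease inhibitor, from 5.03 CPM (3.36 to 6.59) to 25.7 CPM (9.95 to 213), both without overlap. For Wfdc17 the log2 fold change of 3.28 was 1.81 without libraries 5, 6 and 7.

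In the network around MYC, 2 of 11 genes rose and 3 fell, beside 17.3% and 17.6% of all genes tested. Mycn, its relative, went from 121 CPM (87.1 to 204) to 281 CPM (136 to 335) (1.05 ± 0.17), while the antagonists Mxd1, Mxi1 and Mnt fell by 1.21, 0.86 and 0.73 on the log2 scale. In the integrated stress and unfolded protein response, 7 of 33 genes rose and 3 fell, against 17.3% and 17.6% of all genes, and 12 rose without libraries 5, 6 and 7. Of autophagy genes 7 of 31 rose and 6 fell, near the same shares of all genes. Without libraries 5, 6 and 7, 13 autophagy genes fell. Among genes of quiescence Tob1, an antiproliferative factor, rose from 53.8 CPM (25.9 to 72) to 163 CPM (77 to 224), and its relative Tob2 fell from 257 CPM (212 to 345) to 81.9 CPM (74.4 to 157). Antigen presentation genes of MHC class I rose in 6 of 15 cases and fell in 1, beside 17.3% and 17.6% of all genes, at a median of 0.09. Tap1, a peptide transporter, was among those that rose (0.50 ± 0.08), and Nlrc5 was the 1 that fell (-0.71). With a minimum fold of 1.5 in the test, 0 rose and 0 fell.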
